A study of Mus musculus with 20 samples.

Results

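Cytosolic ribosomal protein genes were followed in mouse fibroblasts with and without heat shock factor 1. Members were all genes whose symbol in the platform's probe table starts with Rpl or Rps and a digit, or is Rplp0, Rplp1, Rplp2 or Rpsa. S6 kinase genes, pseudogenes and like-genes were left out, as were probes that list several genes. This gave 63 genes of the 10843 with a probe listing 1 gene, and all 63 passed the filter on missing values, as did 10625 genes in all. By name 22 encode proteins of the small subunit, 36 of the large subunit and 3 of the stalk. Rps19bp1, which encodes a binding protein of Rps19, and Rpl37rt, a retrotransposed copy of Rpl37, matched the rule by their symbols. A further 10 genes that fit the naming rule were reached only by probes that list several genes (Rpl5, Rpl12, Rpl14, Rpl22, Rpl26, Rps2, Rps3, Rps16, Rps27 and Rps27rt) and were not tested.

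A cytosolic ribosome is built from a small subunit, which reads the mRNA, and a large subunit, which joins amino acids. Each subunit holds ribosomal RNA and a single copy of most of its proteins, so cells make these proteins in matched amounts. Many mRNAs of ribosomal proteins begin with a terminal oligopyrimidine (TOP) tract, a C at the first transcribed base followed by a run of pyrimidines, through which growth signals control their translation. HSF1, the factor missing in the mutant cells, binds the promoters of chaperone genes and activates them when cells are heated.

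The study compared fibroblasts with the gene (HSF1 +/+, WT) and fibroblasts without it (HSF1 -/-, KO) before and during heat shock, on 20 two-colour spotted arrays. Each genotype had 3 arrays at 0 h and 1 array at each of 0.5, 1, 2, 3, 4, 6 and 8 h. The sample was in the Cy5 channel and the Cy3 channel held a pool of mRNA from unheated fibroblasts and from fibroblasts heated for 1 h. The labels name a cell line and give no temperature, clone or passage, so the HSF1 genotype and any other difference between the WT and the KO cells cannot be told apart.

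The deposited log2 ratios of sample to pool were centred on the median of their array. In what follows a gene's value is the mean of its probes, set so that the mean of its 3 WT 0 h arrays is 0. Values are relative to the median transcript of the array. They give no amount per cell, and fewer cells of a type and less RNA per cell cannot be told apart. The labels do not tell whether the repeated arrays at 0 h stem from independent cultures. The p-values then reflect only how far these arrays scatter, which may be technical.

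The HSF1 target Hspa1a, read as a check of the labels, was higher than at 0 h by 5.83 ± 0.75 (SE) in WT cells from 3 to 8 h and by -0.01 ± 0.75 in KO cells (limma, adjusted p = 0.00184 and 0.999). Arrays held 39037 to 42220 values, and the correlation of 2 arrays over probes was 0.423 to 0.805. The width of an array's distribution, as the median absolute deviation, was 1.08 to 1.12 on the WT 0 h arrays, 0.80 to 1.12 on the KO 0 h arrays and 0.68 to 0.85 on the KO arrays from 3 to 8 h. Ratios to a pool carry no levels, so the fibroblast markers could be compared between groups but not checked for presence. At 0 h 1 of 9 fibroblast markers was lower and 2 were higher in KO cells, 1 of 7 macrophage markers was lower, and no epithelial, endothelial, muscle, adipocyte or neural marker passed the limma test (5 had an unadjusted p under 0.05).

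Of the 63 genes, 49 had a window around their transcription start in the RefSeq promoter table (GRCm38.p6), and 11 of the 49 start with a TOP tract of a C and at least 4 further pyrimidines. That is 22.4%, against 3.01% of all 27025 genes in the table. The count takes the annotated first base as it stands. Rpl7a, Rpl27a and Rps24 were not counted, since their annotated first base is a T right after a C, although it opens at least 4 pyrimidines. In Rps9 the first base is also a T after a C, but its run is shorter. The starts of 5 of the 11 are shown first, for both subunits and the stalk, from 15 bases before the start to 15 bases from it, 5′ to 3′ on the coding strand. Capitals mark the pyrimidine run from the first transcribed base. The starts of Rps23, Rpsa and Rplp0, whose annotated first base opens no such run, are shown for comparison.
Rps6, chr4:86857353-86857382, minus strand: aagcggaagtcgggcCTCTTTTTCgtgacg
Rps18, chr17:33955651-33955680, minus strand: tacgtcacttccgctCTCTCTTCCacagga
Rpl35, chr2:39005117-39005146, minus strand: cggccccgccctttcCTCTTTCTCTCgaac
Rpl35a, chr16:33056467-33056496, plus strand: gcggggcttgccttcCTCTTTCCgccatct
Rplp2, chr7:141447636-141447665, plus strand: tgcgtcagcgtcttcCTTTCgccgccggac
Rps23, chr13:90923107-90923136, plus strand: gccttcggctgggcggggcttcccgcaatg
Rpsa, chr9:120127751-120127780, plus strand: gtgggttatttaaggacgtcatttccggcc
Rplp0, chr5:115559452-115559481, plus strand: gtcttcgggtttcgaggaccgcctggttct

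The other 6 genes with such a start were Rpl15, Rpl28, Rpl38, Rps10, Rps15a and Rps21. In the whole windows, 250 bases before to 50 bases after the start, the letters CCGGAAG, the core bound by ETS factors, stood on either strand in 22 of the 49 genes (44.9%) and in 9.93% of all genes of the table. The TATA box letters TATAAA stood on either strand in 4 of the 49 (8.16%) against 15.7% of all genes. An element of 3 units of GAA and TTC in turn with 2 bases between them, the pattern HSF1 binds, was found in 1 of the 49, Rps18 (2.04%), against 0.662% of all genes. A match of letters is not a bound site, and nothing follows about a factor where the letters are not in the window.

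The first comparison asks how unheated fibroblasts without HSF1 differ from unheated ones with it. Transcripts of ribosomal proteins were lower in KO cells: 56 of the 63 genes passed the limma test as lower and none as higher (62 with an unadjusted p under 0.05, all lower), and the remaining 7 were below 0 as well. The background, over all genes, was 3.6% lower past the same test. The median log2 difference of the 63 genes was -1.02, against 0.05 for all genes tested, and the differences ran from -1.39 (Rps23) to -0.26 (Rps19bp1). Both subunits were lower, with 20 of 22 genes of the small subunit past the test (median -1.05) and 35 of 39 of the large subunit and stalk (median -0.98). All 3 KO arrays lay below all 3 WT arrays for 60 of the 63 genes, which held for 11.9% of the genes with a value on all 6 arrays.

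**Figure D1:**
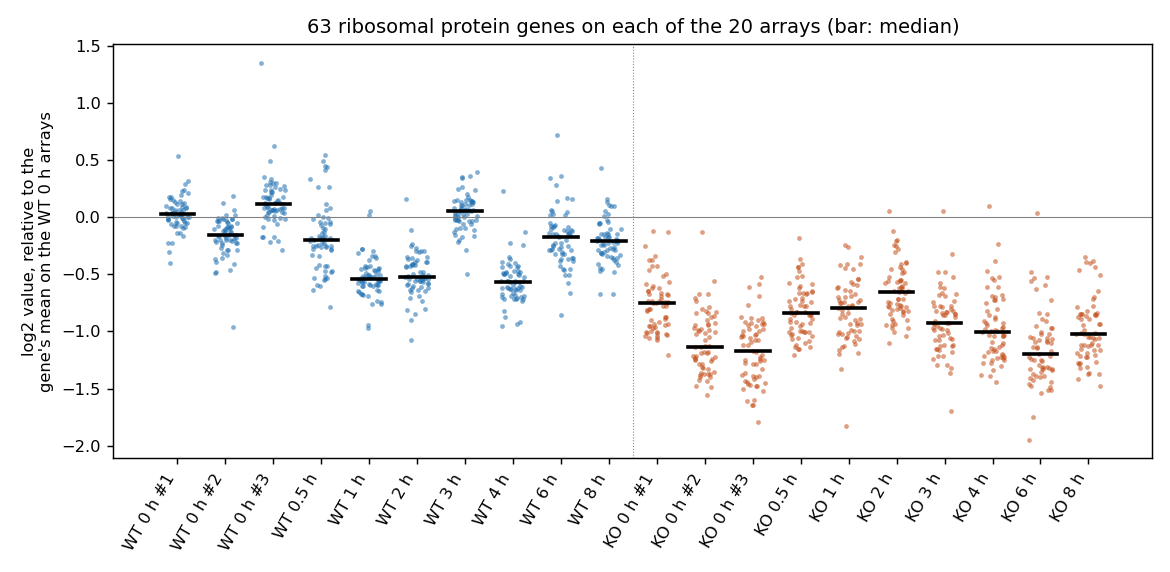
Each point is 1 of the 63 ribosomal protein genes on 1 array, as its log2 value relative to its mean on the 3 WT 0 h arrays, and the bars are the medians of the 63 genes. The medians of the 10 KO arrays lie between -1.20 and -0.65, below all 10 WT medians, which lie between -0.56 and 0.12.

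Among the genes of the small subunit, Rps14, which lies on the platform of the subunit, had the smallest p of the 63. It read -0.05, -0.03 and 0.08 on the WT 0 h arrays and -1.20, -1.48 and -1.46 on the KO 0 h arrays. The KO arrays were thus more than a log2 unit below the WT arrays, and the difference was -1.38 ± 0.17 (SE; limma, adjusted p = 0.000117), a level 2.61-fold lower. Rps13 read 0.00, -0.19 and 0.20 in WT and -1.05, -1.36 and -1.65 in KO cells (-1.35 ± 0.18, limma adjusted p = 0.000163). Rps26, at the channel through which mRNA leaves the subunit, was lower by a similar amount (-1.29 ± 0.17, limma adjusted p = 0.000196). Rps23, at the decoding centre, had the lowest difference, -1.39 ± 0.21, with KO arrays at -1.07, -1.31 and -1.80 against 0.17, -0.16 and -0.01 in WT cells (limma, adjusted p = 0.000641).

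Rps6, the substrate of the S6 kinases that relay growth signals, read 0.09, -0.07 and -0.01 in WT and -0.89, -1.26 and -1.39 in KO cells. It was 2.27-fold lower without HSF1 (-1.18 ± 0.19, limma adjusted p = 0.000894). Rpsa, also known as the laminin receptor, read 0.13, -0.20 and 0.07 in WT and -0.94, -1.25 and -1.09 in KO cells, 2.13-fold lower (-1.09 ± 0.20, limma adjusted p = 0.00297). For both genes the groups did not overlap. Of the 11 tested probes of Rpsa, 10 were lower in KO cells and 1 was higher, with differences from -1.37 to 0.41.

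In the large subunit the smallest p-values were those of Rpl36 and of Rpl35, a protein at the exit of the peptide tunnel. Rpl36 read 0.01, -0.03 and 0.02 in WT cells, a spread far smaller than its distance from the KO arrays at -1.01, -1.29 and -1.44 (-1.25 ± 0.16, limma adjusted p = 0.00019). Rpl35 read 0.00, -0.05 and 0.05 in WT and -0.94, -1.18 and -1.43 in KO cells (-1.19 ± 0.16, limma adjusted p = 0.000231). In Rpl11, which can bind Mdm2 and thereby restrain the decay of p53, the WT arrays lay at -0.08, -0.01 and 0.09 and the KO arrays at -0.91, -1.23 and -1.36 (-1.17 ± 0.18, limma adjusted p = 0.000735). In these 3 genes replicate 1 was the highest of the KO 0 h arrays, as it was in 62 of the 63 genes. Replicate 1 was also the widest of the KO 0 h arrays, at 1.12 against 0.80 and 0.90 for replicates 2 and 3. Whether its width set its place was not tested.

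The stalk recruits the factors that drive elongation, and its 3 genes were all lower. Rplp1 had the largest of the 3 differences, with 2.45-fold less in KO cells (-1.29 ± 0.20, limma adjusted p = 0.000673) and arrays at -0.09, -0.18 and 0.27 in WT against -1.00, -1.40 and -1.47 in KO cells. Rplp0, the base of the stalk, read -0.01, -0.11 and 0.12 in WT and -0.87, -1.22 and -0.90 in KO cells (-1.00 ± 0.22, limma adjusted p = 0.00946). Rplp2 read 0.18, -0.01 and -0.17 in WT and -0.75, -0.92 and -1.12 in KO cells (-0.93 ± 0.18, limma adjusted p = 0.00471). The groups overlapped in none of the 3 genes, and the intervals of their differences overlapped one another. The call of Rplp0 was lost without KO 0 h replicate 2 (limma, adjusted p = 0.0501).

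The 7 genes that did not pass at 0 h differed in how far their arrays spread. Rps7 had a difference as low as the leading genes, -1.30 ± 0.41, but its single probe read -0.40, -0.96 and 1.35 on the WT arrays (limma, adjusted p = 0.07). Without WT 0 h replicate 2 its difference was -1.78 and passed (limma, adjusted p = 0.0112). Rpl27a read -0.13, -0.49 and 0.63 in WT and -0.25, -0.93 and -1.05 in KO cells, so the groups overlapped (-0.74 ± 0.25, limma adjusted p = 0.0914). Rpl3, near the peptidyl transferase centre, read -0.23, 0.06 and 0.17 in WT and -0.13, -0.70 and -0.69 in KO cells, again with an overlap (-0.51 ± 0.24, limma adjusted p = 0.237). Rpl27a passed without WT 0 h replicate 2 or KO 0 h replicate 1 (-0.99 each, limma adjusted p = 0.0273 and 0.033). Rpl19 (-0.77 ± 0.25), Rpl7 (-0.60 ± 0.20) and Rps19 (-0.57 ± 0.19), whose human counterpart is mutated in Diamond-Blackfan anaemia, missed the limma test with adjusted p of 0.0728, 0.0809 and 0.0809. Rpl19 passed without the WT 0.5 h array and Rps19 without the KO 6 h array (limma, adjusted p = 0.0359 and 0.029). Rpl7 had the widest range among its probes, with 6 of 7 lower and differences from -0.98 to 0.98. Rps19bp1, not a component of the ribosome, read 0.09, 0.12 and -0.21 in WT and -0.12, -0.13 and -0.52 in KO cells and had the smallest difference of the 63 (-0.26 ± 0.18, limma adjusted p = 0.456).

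The gene values are means of single probes, so the count of lower probes is no separate test of the direction. Of 265 tested probes 257 were lower in KO cells at 0 h, against 49.3% of all probes tested. Within each array, which no scaling between arrays touches, the median of these probes stood at the 91.4th to 94.9th percentile of all probes on the 10 WT arrays and at the 75.9th to 87.4th on the 10 KO arrays. The genotypes did not overlap in this measure. Centred ratios to the pool were 1.36 to 2.07 on the WT arrays and 0.65 to 1.23 on the KO arrays (log2), above 0 in both genotypes. The sample was always in the Cy5 channel and the pool in the Cy3 channel. A dye effect and an excess over the pool thus cannot be told apart.

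Fitted on the 6 arrays at 0 h alone, with few degrees of freedom for the spread, limma called 6 of the 63 genes as lower. In that fit 0.403% of all genes were called lower. An unadjusted p under 0.05 was found for 59 of the 63 genes. With arrays scaled to a common width, the median difference was -0.73. Under that scaling and under quantile normalization 48 of the 56 calls were kept and all 63 genes were below 0. With 1 probe per gene 7 calls were lost and 59 of the 63 genes were below 0; the other 4 were Rpl7 (0.98), Rpl17 (0.07), Rpl37 (0.07) and Rpl27a (0.06). Among genes named here, Rpl23a (-0.73), Rps20 (-0.73) and Rpl4 (-0.80), which passed, lost their calls under both the common width and quantile normalization. With 1 array left out at a time, Rpl23a and Rps20 lost theirs in 4 of 20 fits and Rpl4 in 3.

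**Figure D2:**
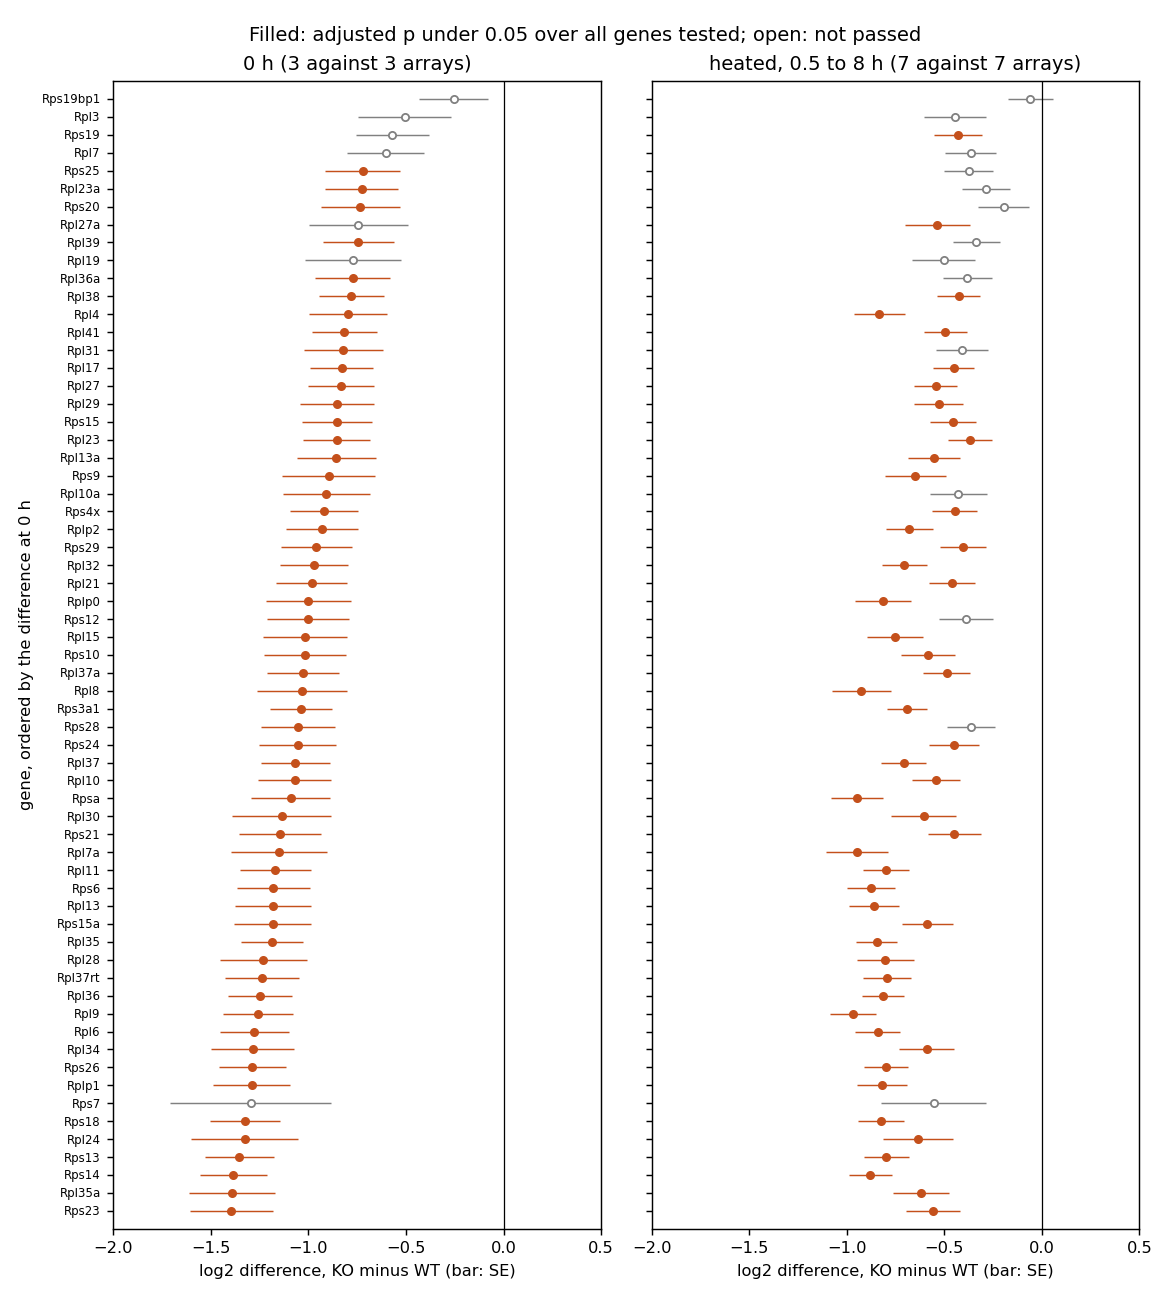
Log2 differences, KO minus WT, of each of the 63 genes at 0 h (left) and over the heated arrays (right), with the SE of the limma fit as bars and filled points for genes past an adjusted p of 0.05. All points lie left of 0, and for 62 of the 63 genes the heated difference lies nearer to 0 than that at 0 h. The differences of all genes tested, not shown here, were narrower in the heated cells as well, where more arrays were averaged.

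The second comparison takes the 14 heated arrays, with every time counted once on both sides, and asks whether the genotypes also differed in arrays not used at 0 h. The genes were again lower in KO cells, 49 of 63 past the limma test (60 with an unadjusted p under 0.05) against a background of 6.07% of all genes. The median difference was -0.56, while that of all genes was 0.02, and for 62 of the 63 genes the difference was nearer to 0 than at 0 h. The differences of all genes narrowed too, with 25th and 75th percentiles of -0.24 and 0.33 at 0 h and -0.19 and 0.21 in the heated cells. The 0 h differences rest on 6 arrays and the heated ones on 14, and averaging more arrays by itself narrows such a spread. How much of the narrowing this accounts for was not tested. How many of all genes came nearer to 0 was not counted. Of the small subunit 17 of 22 genes passed, and 31 of 39 of the large subunit and stalk. In all, 47 genes passed both at 0 h and in the heated cells, 9 at 0 h only, 2 in the heated cells only (Rpl27a and Rps19) and 5 in neither. Passing in one comparison and not in the other does not show that the differences were unequal.

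The largest heated differences were those of Rpl9, Rpsa and Rpl7a. Rpl9, a protein of the large subunit, ran from -0.56 to 0.11 on the heated WT arrays (median -0.21) and from -1.44 to -0.97 on the heated KO arrays (median -1.24), with no overlap and a difference of -0.97 ± 0.12 (limma, adjusted p = 3.76e-05). Rpsa ran from -0.63 to 0.28 in WT (median -0.18) and from -1.31 to -1.00 in KO cells (median -1.16), again without overlap (-0.95 ± 0.13, limma adjusted p = 0.000131). Rpl7a, with values from -0.96 to 0.41 in WT (median -0.41) and from -1.75 to -0.99 in KO cells (median -1.32), differed by -0.95 ± 0.16 (limma, adjusted p = 0.000726). Of the other genes described at 0 h, Rps6 was lower by a difference of -0.88 ± 0.12, Rplp1 of -0.82 ± 0.13, Rplp0 of -0.81 ± 0.14 and Rpl11 of -0.80 ± 0.12.

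The smallest heated differences were those of Rpl23a, Rps20 and Rps19bp1, none of which passed. Rpl23a, where the signal recognition particle docks, ran from -0.60 to 0.06 in WT and from -0.97 to -0.30 in KO cells (-0.29 ± 0.12, limma adjusted p = 0.169). Rps20 overlapped broadly between the genotypes, from -0.63 to 0.10 in WT and from -0.89 to -0.12 in KO cells (-0.20 ± 0.13, limma adjusted p = 0.416). Rps19bp1 was at -0.06 ± 0.12 (limma, adjusted p = 0.826). Among the called genes, Rpl27a (adjusted p = 0.0474) lost its limma call in 15 of the 20 fits that each left out 1 array, Rps19 in 8, Rpl30 in 6 and Rpl24 in 5, and 41 of the 49 calls were kept in all 20.

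Each heated time has 1 array per genotype and no test of its own. The median KO minus WT difference was -0.67 at 0.5 h, -0.32 at 1 h, -0.16 at 2 h, -0.98 at 3 h, -0.39 at 4 h, -0.97 at 6 h and -0.80 at 8 h. At 0.5, 3, 6 and 8 h all 63 genes were lower in the KO array, at 4 h 62, at 1 h 55 and at 2 h 45. By these medians the genotypes were closest at 2 h. The width of the array at 2 h was 0.93 in WT and 1.11 in KO cells. At 1 and 4 h the widths were 0.93 and 0.81 in WT and 0.97 and 0.85 in KO cells. At 0.5, 3, 6 and 8 h they were 1.18, 1.10, 0.90 and 0.92 in WT and 0.92, 0.74, 0.70 and 0.68 in KO cells. Whether array width shaped the differences at single times was not tested. The value of KO was below that of WT at all 7 times for 42 of the 63 genes, against 6.55% of all genes with values at every time, at 6 times for 15 and at 5 times for 6. Rps6 was lower in KO cells at every time, by differences from -1.39 at 6 h to -0.34 at 2 h, and so were Rpl7a (-1.65 to -0.43), Rpsa (-1.60 to -0.51), Rplp0 (-1.50 to -0.25) and Rpl9 (-1.35 to -0.46). Rps20 was higher in the KO array at 1 h (0.19) and 2 h (0.51) and lower at the other 5 times.

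**Figure D3:**
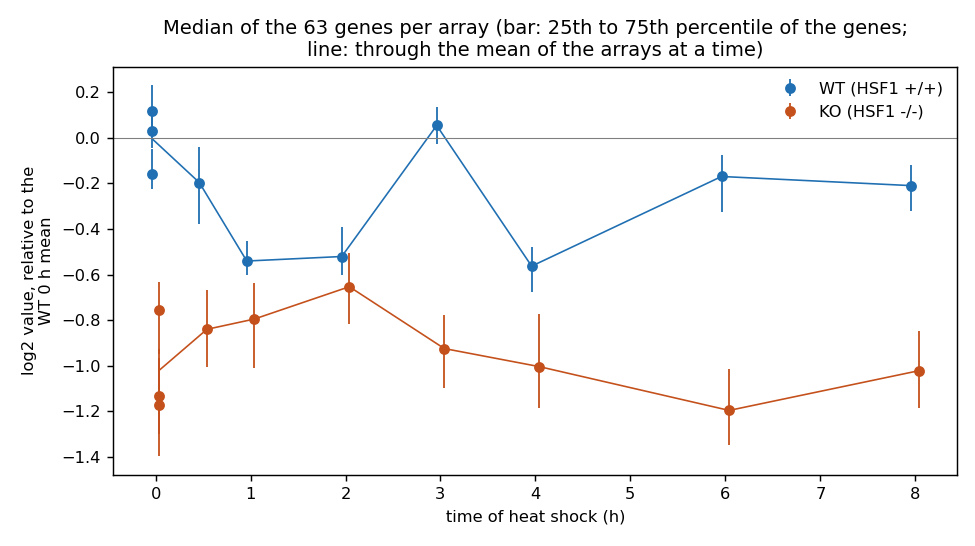
Median of the 63 genes on each array against the time of heat shock, as log2 value relative to the WT 0 h mean, with bars from the 25th to the 75th percentile of the genes and a line through the mean of the arrays at each time. WT medians are lowest at 1, 2 and 4 h (-0.54, -0.52 and -0.56), and KO medians are highest at 2 h (-0.65) and lowest at 6 h (-1.20).

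The third question is how the genes moved during heat shock within each genotype. In WT cells the early arrays, 0.5 to 2 h, were set against 0 h, and the values were mostly lower: 62 of 63 genes were below 0, with a median of -0.40 against 0.00 for all genes. By limma 0 of 63 passed and 32 had an unadjusted p under 0.05, all lower, and 0.0376% of all genes passed in either direction. An unadjusted p under 0.05 was found for 684 of all 10625 genes as lower and 518 as higher. The median of the 63 genes was -0.20 at 0.5 h, -0.54 at 1 h and -0.52 at 2 h, each below the 3 WT 0 h arrays at 0.03, -0.16 and 0.12. The array widths at 0.5, 1 and 2 h were 1.18, 0.93 and 0.93, against 1.08 to 1.12 at 0 h. The lowest differences were those of Rpl30 (-0.84 ± 0.26), Rpl35a (-0.82 ± 0.22) and Rps7 (-0.74 ± 0.41), with limma adjusted p of 0.273, 0.253 and 0.522. Rpl30 read 0.20, -0.48 and 0.29 at 0 h and -0.47, -0.97 and -1.08 at 0.5, 1 and 2 h, so that the array at 0.5 h lay among those at 0 h and the later ones below. The highest were those of Rpl8 (-0.09 ± 0.23), Rpl3 (-0.01 ± 0.24) and Rpl27a (0.17 ± 0.25), which had limma adjusted p of 0.913, 0.993 and 0.837. At 0.5 h Rpl8, Rpl3 and Rpl27a were all above their 0 h mean, at 0.44, 0.54 and 0.34. Under quantile normalization the median of the 63 genes was -0.20 and 10 genes had an unadjusted p under 0.05. With no centring there were 11 such genes, with a common width 15, and 14 without WT 0 h replicate 3, the WT 1 h array or the WT 2 h array.

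From 3 to 8 h the WT values were nearer to 0 h. The median difference was -0.24, with 60 of 63 genes below 0. By limma 0 of 63 passed (8 with an unadjusted p under 0.05, all lower), while 7.27% of all genes passed in either direction. An unadjusted p under 0.05 was found for 1440 of all 10625 genes as lower, no smaller a share, and 1165 as higher. The 4 arrays did not move together: the median of the 63 genes was 0.05 at 3 h, -0.56 at 4 h, -0.17 at 6 h and -0.21 at 8 h. Their widths were 1.10, 0.81, 0.90 and 0.92 in the same order. Rpl30 (-0.66 ± 0.24), Rpl24 (-0.64 ± 0.26) and Rpl7a (-0.49 ± 0.23) were lowest, with limma adjusted p of 0.101, 0.137 and 0.2. At the other end stood Rpl27a (0.44 ± 0.24), Rpl36a (0.02 ± 0.18) and Rpl17 (0.00 ± 0.15), with limma adjusted p of 0.257, 0.95 and 0.99. Rpl27a was above its 0 h mean on all 4 arrays, at 0.40, 0.23, 0.72 and 0.43, but WT 0 h replicate 3 was at 0.63. With arrays scaled to a common width the median turned to 0.03, so no direction is given for the late WT window, and it was -0.14 without the WT 4 h array.

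In KO cells the early arrays were set against 0 h in the same way. The median difference was 0.24, with 61 of 63 genes above 0, and 0 of 63 passed the limma test (5 with an unadjusted p under 0.05, all higher). An unadjusted p under 0.05 was found for 249 of all 10625 genes as higher and 544 as lower. Of all genes 0% passed, so the test had no calls in this window. The highest differences were those of Rps12 (0.53 ± 0.21), Rps7 (0.51 ± 0.41) and Rps23 (0.49 ± 0.21), each with a limma adjusted p of at least 0.632. The lowest were those of Rpl30 (-0.17 ± 0.26), Rpl4 (-0.09 ± 0.20) and Rps19 (0.00 ± 0.19). Without KO 0 h replicate 1 the median was 0.38 and 22 genes had an unadjusted p under 0.05, and without KO 0 h replicate 3 or the KO 2 h array 0 did, with limma calling none in any of these fits. The KO 0 h arrays spread widely, with medians of -0.75, -1.13 and -1.17, and replicate 1 lay above the early KO arrays at 0.5 h and 1 h, whose medians were -0.84 and -0.80, and below the one at 2 h (-0.65).

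From 3 to 8 h the KO values were at those of 0 h, with a median difference of 0.00 and 31 of 63 genes below 0. By limma 0 of 63 passed, while 10.7% of all genes did in either direction. With an unadjusted p under 0.05 stood 1 gene, Rpl27a (0.61 ± 0.24, adjusted p = 0.113), which read 0.05, -0.24, 0.04 and -0.40 at 3, 4, 6 and 8 h against -0.25, -0.93 and -1.05 at 0 h. Rpl17, which lines the peptide tunnel (0.28 ± 0.15), and Rps12 (0.25 ± 0.20) followed, and Rpl7a (-0.31 ± 0.23), Rplp2 (-0.26 ± 0.17) and Rpl3 (-0.25 ± 0.22) were lowest. With arrays scaled to a common width the median was 0.25 and 5 genes passed as higher (Rpl17, Rpl23, Rpl27a, Rps12 and Rps18). Of all 10625 genes 625 passed as higher in that setting. Of all groups the late KO arrays had the lowest median width, 0.72.

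The difference between the genotypes' responses was tested as an interaction. In the early window the WT response was lower than the KO response for all 63 genes, by a median of -0.66, against 0.05 for all genes. By limma 0 of 63 passed and 41 had an unadjusted p under 0.05, all lower, and 0% of all genes passed. An unadjusted p under 0.05 was found for 398 of all 10625 genes as lower and 491 as higher. Rps7 (-1.25 ± 0.58), Rps23 (-1.14 ± 0.30) and Rpl34 (-1.05 ± 0.30) were lowest, with limma adjusted p of 0.59, 0.578 and 0.578. Rps19bp1 (-0.23 ± 0.25), Rpl3 (-0.16 ± 0.34) and Rpl4 (-0.05 ± 0.28) were nearest to 0. The median was -0.42 with arrays scaled to a common width and -0.39 with no centring. The 41 genes became 16 with no centring, 27 with a common width and 28 without KO 0 h replicate 3. In the late window the median was -0.21 with 59 of 63 genes below 0 (-0.11 with 49 below 0 without the WT 4 h array, -0.35 without KO 0 h replicate 1), and 0 of 63 passed by limma (1 with an unadjusted p under 0.05, Rps23) against 0.0941% of all genes. Rps23 (-0.61 ± 0.28), Rpl35a (-0.56 ± 0.29) and Rpl24 (-0.53 ± 0.36) were lowest, and Rpsa (0.01 ± 0.27), Rpl8 (0.02 ± 0.31) and Rpl4 (0.10 ± 0.26) highest. These responses share the 0 h arrays with the first comparison, and no overlap between them is given.

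The 11 genes with a TOP start had a median difference of -1.18 at 0 h and -0.68 in the heated cells, and all 11 passed both times. For the 38 genes whose listed windows show no such start the medians were -1.01 and -0.55, with 33 and 28 past the limma test. The 38 are set by the annotated first base and include Rpl7a, Rpl27a and Rps24, so they are not known to lack a TOP tract. The ranges overlapped widely, from -1.39 (Rpl35a) to -0.78 (Rpl38) with a TOP start and from -1.39 (Rps23) to -0.26 without, and the 2 sets were not tested against each other. The 14 genes without a window had medians of -0.97 and -0.50.

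The rest of the translation machinery was read from lists of genes named by function, against the 3.6% of all genes that were lower at 0 h and the 6.07% that were lower in the heated cells. Of 19 other genes whose mRNAs carry a TOP tract, 10 were lower in KO cells at 0 h and 8 in the heated cells, with medians of -0.73 and -0.40. Among them, Fau encodes a fusion of a ubiquitin-like protein and the ribosomal protein eS30, whose symbol the naming rule does not reach. It differed by -1.02 ± 0.17 at 0 h (limma, adjusted p = 0.00106) and by -0.54 ± 0.11 in the heated cells (limma, adjusted p = 0.00358). Eif2s3x, a subunit of the factor that brings the initiator tRNA, differed by -1.03 ± 0.16 and Hnrnpa1, which binds pre-mRNA, by -1.44 ± 0.24 at 0 h. Of 41 translation factors 8 were lower at 0 h (median -0.33) and 14 in the heated cells (median -0.27), among them the subunits of the elongation factor complex Eef1b2 (-1.19 ± 0.21 at 0 h) and Eef1g (-0.92 ± 0.17 at 0 h). This list and that of the other TOP genes overlap, with the same lowest heated difference (-1.147) in both. Their counts are thus not separate.

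Of 35 genes of ribosome biogenesis 10 were lower at 0 h (median -0.46) and 11 in the heated cells (median -0.36). The smallest p-values at 0 h were those of Rcl1 (-1.17 ± 0.19) and Wdr43 (-0.90 ± 0.16), which act in the processing of the small subunit's RNA, and of Gnl3, a nucleolar GTPase (-1.08 ± 0.17). Of all genes 3.6% were lower at 0 h and 6.07% in the heated cells. RNA polymerase I and its factors, which make the ribosomal RNA, had 1 of 18 genes lower both times, a share near that background, with medians of -0.19 and -0.08. Ribosomes of mitochondria have their own proteins, and 3 of their 73 genes were lower at 0 h (median -0.25) and 6 in the heated cells (median -0.17), again shares near the background. Below 0 were 57 of the 73 at 0 h and 58 in the heated cells, against 45.3% and 47.7% of all genes. For RNA polymerase I and its factors these counts were 13 and 11 of 18. With an unadjusted limma p under 0.05 as lower stood 15 of the 73 at 0 h and 19 in the heated cells, against 1026 and 1261 of all 10625 genes. Of 19 genes that signal to the ribosome 0 passed at 0 h by limma (2 with an unadjusted p under 0.05), with a median of 0.06. No gene of these lists passed as higher at 0 h.

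Among the 7 tested like-genes, Rps27l was lower in KO cells at 0 h (-1.00 ± 0.17, limma adjusted p = 0.00197) and in the heated cells (-0.59 ± 0.12, limma adjusted p = 0.00261). The other 6 did not pass at 0 h: Rpl36al differed by -0.41 ± 0.26, Rpl22l1 by -0.38 ± 0.21, Rps4l by -0.33 ± 0.19, Rpl7l1 by -0.14 ± 0.19, Rpl39l by 0.06 ± 0.26 and Rpl3l by 0.14 ± 0.34. Ribosomal protein genes have many near-identical processed copies in the genome, and a spotted probe can bind transcripts of a copy or of a like-gene as well as its own.

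**Figure D4:**
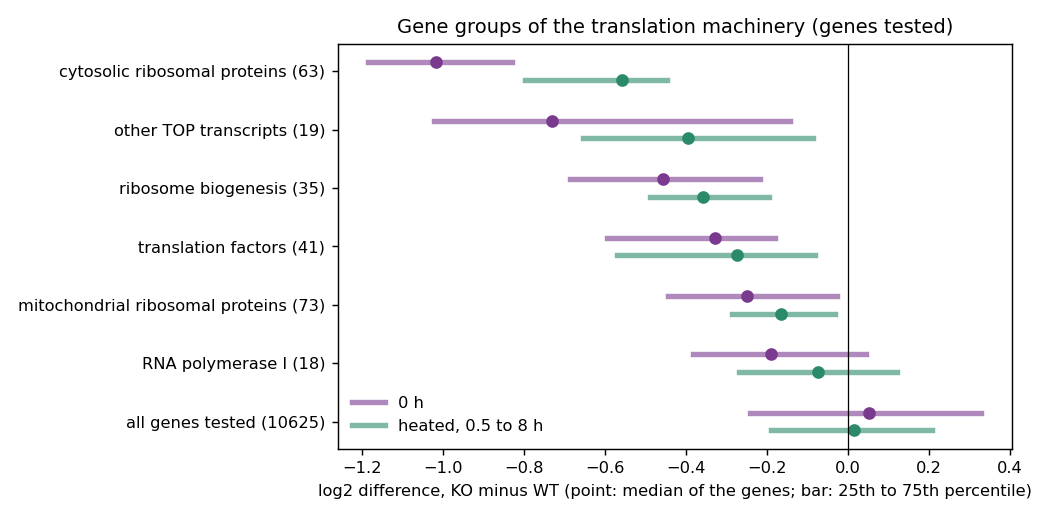
Medians (points) and 25th to 75th percentiles (bars) of the log2 differences, KO minus WT, over the genes tested in each group, at 0 h and over the heated arrays. Cytosolic ribosomal proteins have the lowest medians of the 6 groups (-1.02 and -0.56), and all genes tested lie at 0.05 and 0.02.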

How the data were processed

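The authors deposited 1 log2 ratio of sample (Cy5) over pool (Cy3) per probe and array; dyes and samples are as per the labels, and the base 2 is assumed, since it is not stated. Background correction, spot filters and normalization are not given in the sources used here. Arrays were median-centred. Probes needed 2 values or more in every one of 6 groups: WT and KO at 0 h (n = 3), early (0.5, 1 and 2 h, n = 3) and late (3, 4, 6 and 8 h, n = 4). Of 42624 probes 40453 passed, 20881 of them listing 1 gene. A gene's value is the mean of its probes after each probe's own mean was subtracted. Of the 63 members 5 rest on 1 probe. All 63 gene identifiers were found in the reference under the same symbol.

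A linear model was fitted to all 20 arrays per gene with limma 3.58.1 (R 4.3.3; lmFit, eBayes, two-sided, Benjamini-Hochberg over all 10625 genes of a contrast, threshold 0.05) and was tested on simulated data. Only 0 h has repeated arrays, so the spread within a window includes change over time. The error is the SE of the fit.

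The members, gene lists and tests were chosen with earlier results of these data known. Named are the stalk genes, Rpsa, Rps6 and Rpl11, at 0 h the 5 members of smallest p and those that did not pass, in each response the 3 lowest and 3 highest, in the heated cells the 3 largest and 3 smallest, and the 3 with the widest range over probes (Rpl7, Rpsa and Rpl32, whose probes ran from -1.41 to 0.23). Rps27a and Rpl5, also on that list, were not analysed here. Some ribosomal protein genes are not reported here. Rps18 and other members named for their sequence, and genes beside counts of 5 or fewer, were chosen after their values were seen. Promoter sequences are from RefSeq (GRCm38.p6). Alternatives were the centring, quantile normalization, a common array width, 1 probe per gene, filters on missing values, only the contrasted arrays, blocks by replicate number or time, and leaving out each array.

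Replicate numbers of the 0 h arrays did not pair the arrays: deviations from the group means correlated across genes with r of 0.01, -0.01 and -0.01 for numbers 1, 2 and 3.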

Additional observations from a re-analysis of the deposited data

Results flagged for a closer look

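In 5 of 68 groups of 4 late arrays, 1 array stood apart from the others by a gap that exceeded Dixon's 95% critical value. Chance flags about 1 in 20 groups. In KO cells Rpl17 was at -0.38 at 8 h against -0.61 to -0.59 on the other late arrays, Rpl36 at -1.51 at 6 h against -1.22 to -1.21, Rpl36a at -0.68 at 3 h against -0.54 to -0.51, and Rpl7a at -1.75 at 6 h against -1.39 to -1.32. In WT cells the single probe of Rps7 was at 0.36 at 3 h against -0.38 to -0.26.

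Medians of the early responses lay on opposite sides of 0 in the 2 genotypes. The median of the ribosomal protein genes was below the WT 0 h mean on every early WT array and above the KO 0 h mean on every early KO array, and the median difference between the responses was -0.66. KO 0 h replicate 1, at -0.75, lay above the KO arrays at 0.5 h (-0.84) and 1 h (-0.80). Gene by gene the limma interaction test called 0 of the 63 genes. Of these, 41 had an unadjusted p under 0.05 as lower (16 with no centring), as had 398 of all 10625 genes. The difference of the medians was not tested.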

How the results depend on the processing

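The direction at 0 h and in the heated cells was the same under every alternative for the medians of the 63 genes. At 0 h the median was -0.71 under quantile normalization and -0.73 with a common array width, and leaving out each array gave -1.15 to -0.93 and 44 to 57 lower genes. With only the 6 contrasted arrays 6 genes passed as lower, against 0.403% of all genes. In a paired fit, with the replicate number as a replicate block on those 6 arrays, 0 passed by limma and 59 had an unadjusted p under 0.05; no gene of the whole table passed in it. In the heated cells leaving out each array gave -0.64 to -0.52 and 41 to 56 genes. Of the 56 calls at 0 h 42 were kept in all 20 such fits. With 1 probe per gene Rpl17 turned to 0.074 at 0 h and to 0.217 in the heated cells, and Rpl37 to 0.072 at 0 h; Rpl7 and Rpl27a, not called at 0 h, turned to 0.98 and 0.055 there, and Rpl7 to 0.034 in the heated cells.

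In WT cells the early median was -0.20 under quantile normalization (left-out arrays: -0.52 to -0.34) and the late median 0.035 with a common width (-0.33 to -0.14). The late WT count was 1 with 1 probe per gene and 0 to 1 with an array left out (1 without WT 0 h replicate 2). In KO cells the early median was 0.18 to 0.38 with an array left out. The late count was 2 under quantile normalization, 5 with a common width and 1 with 1 probe per gene, all higher. Of all 10625 genes 558, 625 and 450 passed as higher in these settings. The late median was 0.25 with a common width (left-out arrays: -0.08 to 0.12). The early interaction median was -0.39 with no centring, -0.41 under quantile normalization and -0.42 with a common width (left-out arrays: -0.78 to -0.57), and the late one was -0.35 to -0.11 with an array left out. Removing the centring moved the median of all genes at 0 h from 0.05 to 0.16. The cause of these shifts was not tested. Of the settings for named genes 1699 kept the call and direction and 18 gained a call. Another 129 lost the call or, for genes not called in the main fit, changed direction. In 2 a called gene changed direction. Signal over background was not examined.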

Other observations

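Probes that list several genes were left out of every gene value. Of these, 60 list a ribosomal protein gene and passed the filter, and at 0 h 56 of the 60 were lower in KO cells, with a median of -1.03 and a range from -1.68 to 0.73. In the heated cells 55 of them were lower, with a median of -0.59. They include the probes of 10 ribosomal protein genes, such as Rpl5 and Rps3, that no probe lists alone, and which of its genes such a probe read is not known.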
